A study of Mus musculus with 34 samples.

Results

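The comparison set the first 3 fractions of a horizontally sliced brain, 1 to 3, against fractions 6 to 8 of the same brain, and used 6 of the 34 arrays of the series. The 6 arrays were taken by the fraction number in their titles, and a probe was kept when the scanner software flagged it well above background in at least 2 of them, which held for 32919 of the 43199 probes in the authors' table. The brain came from a male C57BL/6J mouse, mouse 2, aged 3 days, with no genetic change or treatment named in the labels, and each fraction pooled 100 slices of 5 µm, so that it was 500 µm thick. The horizontal series holds 8 such fractions, and coronal and sagittal series of a further mouse each make up the rest. Each fraction has 1 Agilent array of a single colour. The 3 fractions of a block are therefore neighbouring positions in 1 animal and not biological replicates, and the tests below compare positions, with no information on the spread between mice.

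A horizontal cut of the newborn mouse brain separates tissue by height. The dorsal side holds the cerebral cortex, the hippocampus, the cerebellum and the roof of the midbrain, and the ventral side holds the striatum, the basal forebrain, the hypothalamus and the floor of the brainstem. These regions are laid down by transcription factors that remain active after birth, so the level of a regional regulator in a slice depends on how much of its region the slice contains. In whole slices, fewer cells of a type and less RNA per cell cannot be told apart.

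The labels do not say from which side the horizontal fractions were counted, so the names dorsal and ventral were checked against lists of regional genes. Of 13 dorsal midbrain genes kept, 12 had a higher mean in fractions 1 to 3, with a median log2 difference of 2.24, and the 32 cortical genes had a median of 0.49. The 32 genes of striatum and basal forebrain had a median of -1.66 and the 28 hypothalamic neuropeptides one of -1.34, while the median over all probes tested was 0.06. The hippocampal and cerebellar lists did not follow this order, with medians of -0.28 over 13 genes, 6 of them positive, and of -0.17 over 27 genes, 12 of them positive. The names dorsal and ventral thus rest on the midbrain, cortical, striatal and hypothalamic lists. Fraction 1 departed from this order, because it also carried genes of the hypothalamus, the basal forebrain and the hindbrain, and the effect of leaving it out is given for named calls and for the lists whose 2-fold counts it moved most.

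On the 6 arrays between 33530 and 35237 of 59305 spots were well above background, and R2 between spike-in signal and amount was 0.988 to 0.991. The arrays of fractions 1, 2, 6, 7 and 8 shared a slide and a scan, and that of fraction 3 was on another slide. Levels are given on the log2 scale of the authors' table, where 0 is close to the 75th percentile of the array. Differences are the mean of fractions 1 to 3 less the mean of fractions 6 to 8, with the standard error (SE) of the fit.

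At an adjusted p under 0.05, 65 probes (0.197% of 32919) were higher in fractions 1 to 3 and 124 probes (0.377%) were higher in fractions 6 to 8. The blocks did not overlap for any of these 189 probes. Over all 32919 probes tested they did not overlap for 7927, and a call favours such probes, so this is no separate evidence. The 65 probes included 33 with a gene symbol, for 32 genes, and 18 probes of long non-coding RNA (lncRNA), and the 124 probes included 99 with a symbol, for 94 genes, and 8 lncRNA probes. The median size of the difference was 1.58 in the dorsal set and 1.45 in the ventral set, and the smallest were 0.88 and 0.86. Among probes with a measured value in the lower block, in 1 fraction or more, the largest were 3.84 and 5.73. For 9 of the 65 and 24 of the 124 probes no fraction of the lower block was well above background, so that only a lower bound can be given. For these the lower block was set in each fraction to the higher of the probe's own value and the lowest value well above background on that array, and the result is written as "at least". An exact permutation of 3 fractions against 3 cannot go below a two-sided p of 0.1, so a call rests on the variance that limma shares between probes. The calls depended on single fractions. Without fraction 1 the test called 7 probes (0.0213%) higher in fractions 2 and 3 and 51 (0.155%) higher in fractions 6 to 8, of which 26 were among the 189. Without fraction 2, 6, 7 or 8 limma called 0 probes, at 4255, 3782, 3472 and 4068 probes with an unadjusted p under 0.05, against 5300 in the full comparison. Without fraction 3, or with the slide as a block, which comes to the same, 79 and 89 probes were called, of which 78 were among the 189. In that fit 7606 probes had an unadjusted limma p under 0.05. In each of these fits all 189 probes kept their direction.

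A second count, chosen after the data were seen and carrying no test, took probes whose blocks did not overlap and differed by at least 2-fold. It held 361 probes (1.1%) higher in fractions 1 to 3 and 650 probes (1.97%) higher in fractions 6 to 8. Without fraction 1 the numbers were 430 (1.31%) and 864 (2.62%), of which 310 and 599 were also in the first count. For gene lists each gene was given by its brightest probe. On this basis 29 of 15621 genes (0.186%) were called higher in fractions 1 to 3 and 85 (0.544%) higher in fractions 6 to 8, and 134 (0.858%) and 459 (2.94%) passed the 2-fold count. Without fraction 1, 166 (1.06%) and 596 (3.82%) passed it.

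**Figure D1:**
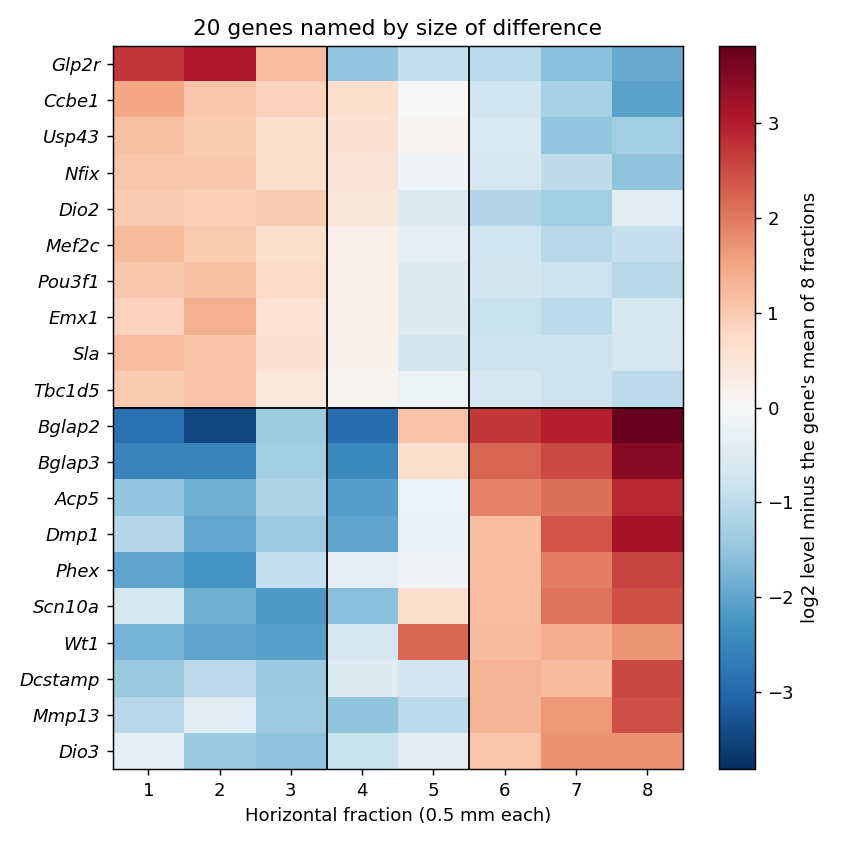
Level of 20 genes in the 8 horizontal fractions, as the log2 level less the mean of the gene over the 8 fractions (colour), with fractions on the x axis and lines around fractions 4 and 5. The upper 10 genes had the largest called differences in favour of fractions 1 to 3 and the lower 10 in favour of fractions 6 to 8; Bglap2 differed by -5.73 and Sla by 1.69.

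The 10 genes with the largest called differences in favour of fractions 1 to 3 were Glp2r, Ccbe1, Usp43, Nfix, Dio2, Mef2c, Pou3f1, Emx1, Sla and Tbc1d5. All 10 kept their direction without fraction 1 but none was called then, with limma's adjusted p between 0.0531 for Mef2c and 0.108 for Ccbe1. Several of them encode transcription factors of cortical neurons. Emx1, a homeobox gene of the dorsal telencephalon, had levels of 1.54, 2.02 and 1.18 in fractions 1 to 3 and of -0.18, -0.38 and 0.04 in fractions 6 to 8. The lowest dorsal value was thus above the highest ventral one by more than a log2 unit, and the difference was 1.75 (SE 0.24, adjusted p = 0.0484). Mef2c, a MADS-box factor of maturing excitatory neurons, read 2.25, 2.06 and 1.69 against 0.31, -0.01 and 0.18. Its difference was 1.84 (SE 0.18, adjusted p = 0.0294). Nfix, a factor of the nuclear factor I family, declined along the axis, from 5.95, 5.91 and 5.55 to 4.23, 3.91 and 3.33 (difference 1.98, SE 0.25, adjusted p = 0.0481). The POU-domain factor Pou3f1 read 4.95, 5.06 and 4.64 against 3.21, 3.12 and 2.87, a difference of 1.82 (SE 0.17, adjusted p = 0.0268).

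Glp2r, the receptor of glucagon-like peptide 2, had the largest difference, at 3.84 (SE 0.52, adjusted p = 0.0484). Its levels were -1.29, -0.91 and -2.83 in fractions 1 to 3 and -5.03, -5.61 and -5.91 in fractions 6 to 8, where it was well above background in 1 fraction of 3. A second Glp2r probe differed by 0.37 (adjusted p = 0.42), so the probes of this gene did not give the same result. Ccbe1, a secreted protein known from lymphatic growth, had 3 probes with differences of 2.48, 1.92 and 2.73, of which the first and the last were called. Its brightest probe fell step by step from 1.14 in fraction 1 to -2.38 in fraction 8. The deubiquitinase gene Usp43, the Src-like adaptor Sla and the Rab GTPase-activating Tbc1d5 differed by 2.04, 1.69 and 1.64, with adjusted p of 0.0484, 0.0426 and 0.0481.

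Of the 32 cortical genes, 3 were called higher in fractions 1 to 3 (Emx1, Lhx2 and Mef2c) and 0 higher in fractions 6 to 8. In the 2-fold count 9 were higher in fractions 1 to 3 and 2 in fractions 6 to 8. Lhx2, a LIM-homeobox gene needed for cortical identity, read 4.42, 4.64 and 4.56 against 3.33, 2.99 and 2.72 (difference 1.53, SE 0.18, adjusted p = 0.046, and 0.0766 without fraction 1). Neurod6, a factor of excitatory cortical neurons, read 3.13, 3.96 and 4.04 against 2.94, 2.39 and 1.27 (adjusted p = 0.206). Other genes of the list did not follow the height of the slice. Tbr1, a factor of early cortical neurons, lay between 3.73 and 4.47 in all 8 fractions. Eomes, which marks intermediate progenitors and also neurons of the olfactory bulb, read -0.69, -4.08 and -1.80 against 1.14, 1.00 and 0.11 (adjusted p = 0.182), and Slc17a7, a vesicular glutamate transporter, had a difference of -1.12 (adjusted p = 0.13).

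The list of dorsal midbrain genes had the highest median of the 26 lists, 2.24, and 2.40 without fraction 1. Of its 13 genes kept, 0 were called, 10 were at least 2-fold higher in fractions 1 to 3 in the count without a test and 12 were so without fraction 1. Pax7, a paired-box factor of the tectum, read -1.06, 0.09 and -1.43 in fractions 1 to 3. In fractions 6 to 8 it read -3.09, -4.50 and -5.54 and was not well above background in fraction 8, a difference of 3.57 (SE 0.67, adjusted p = 0.0854). Tfap2b, an AP-2 factor, reached 3.76 and 3.37 in fractions 2 and 3 but 1.38 in fraction 1, and lay at 0.76, 0.24 and -1.06 in fractions 6 to 8. Pou4f2, a POU factor also known from retinal ganglion cells, had the same shape, with -0.30, 1.95 and 2.47 against -1.46, -0.40 and -2.44. For both genes fraction 1 was the lowest of its block, and the difference grew without it, from 2.86 to 3.58 for Tfap2b and from 2.80 to 3.64 for Pou4f2. Sox14, which is expressed in GABAergic neurons of the midbrain and thalamus, came nearest to a call, at -2.89, -1.72 and -3.09 against -4.98, -4.61 and -4.83 (difference 2.24, SE 0.36, adjusted p = 0.0641). Otx2, Dmbx1 and Pou4f3 differed by 2.34, 2.47 and 2.82. Pou4f3 was well above background in fractions 2 to 4 only.

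**Figure D2:**
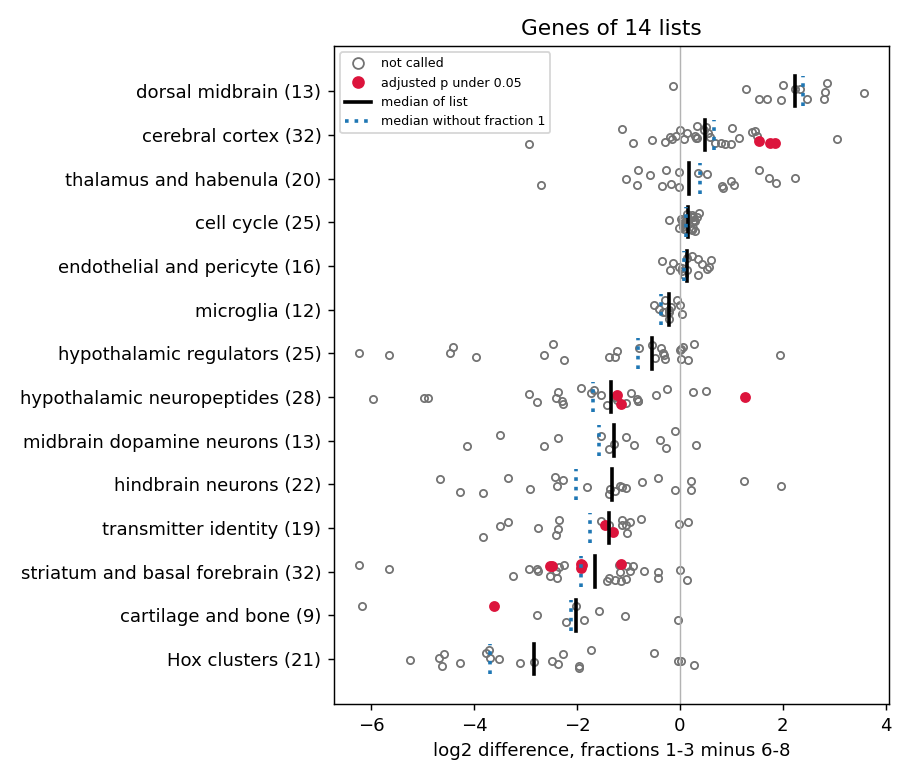
Log2 difference between fractions 1 to 3 and 6 to 8 (x axis) for every kept gene of 14 of the 26 lists (y axis, number of genes in brackets). Red points are called genes, black lines list medians and dotted blue lines medians without fraction 1; the medians run from 2.24 for dorsal midbrain to -2.83 for Hox clusters, which moves to -3.70 without fraction 1.

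In the opposite direction the regional list with the most calls was that of the striatum and basal forebrain, with 6 of the 85 genes called higher in fractions 6 to 8. Of its 32 genes 0 were called higher in fractions 1 to 3, and 25 against 0 passed the 2-fold count, with or without fraction 1. Ppp1r1b encodes DARPP-32, a phosphatase inhibitor of striatal projection neurons. It read 1.93, 1.09 and 1.60 in fractions 1 to 3 and 4.17, 3.89 and 4.15 in fractions 6 to 8, a difference of -2.54 (SE 0.23, adjusted p = 0.0268). The retinoid receptor genes Rxrg and Rarb differed by -2.49 (SE 0.29, adjusted p = 0.0426) and -1.93 (SE 0.19, adjusted p = 0.0294). Rxrg read 2.30, 1.68 and 1.42 against 4.69, 4.21 and 3.98, and Rarb 0.59, 0.23 and 0.07 against 2.05, 2.16 and 2.48. For both genes fraction 1 was the highest of the dorsal block and still well below the ventral one. The paired homeobox genes Dlx5 and Dlx6, which act in the birth of forebrain GABA neurons, differed by -1.91 and -1.93, both at an adjusted p of 0.0484. Tac1, the precursor of substance P, read 3.02, 2.85 and 3.15 against 4.18, 4.08 and 4.17 (adjusted p = 0.0426, and 0.0771 without fraction 1). Adora2a, the adenosine receptor of the indirect pathway, and Penk, the enkephalin precursor, had larger but uncalled differences of -2.94 and -2.78 (adjusted p = 0.0678 and 0.1).

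The RefSeq window before a start site of Rarb (GRCm38.p6, chr14:16575477-16575726, minus strand) is shown because Rarb and its partner Rxrg were called together. It holds GGTTCA and AGTTCA with 5 bases between them, a spacing of paired sites at which retinoic acid receptors are known to bind, from 53 to 37 bases before the start, printed in capitals.
Rarb: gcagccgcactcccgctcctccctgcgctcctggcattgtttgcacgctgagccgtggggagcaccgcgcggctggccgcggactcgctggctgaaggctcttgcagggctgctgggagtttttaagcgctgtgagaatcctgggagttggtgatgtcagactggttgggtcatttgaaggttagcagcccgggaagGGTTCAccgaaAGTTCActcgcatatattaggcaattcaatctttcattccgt
This arrangement, searched on both strands, was present in 2 of 32851 RefSeq windows of 250 bases (0.00609%), and Rarb was the only one of the 81 called genes with a window to hold it. The letters searched are exactly those of the Rarb window, not a general form of the site. Its match was therefore fixed by the choice of letters, and the rarity is no evidence. The match describes the letters of the window.

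Genes of transmitter use followed the same direction. Of 19 kept, 2 were called higher in fractions 6 to 8, and 13 against 0 passed the 2-fold count. Slc32a1, the vesicular transporter of GABA and glycine, read 5.18, 5.39 and 5.35 against 6.65, 6.58 and 6.61 (difference -1.30, SE 0.12, adjusted p = 0.0268). Without fraction 1 neither Slc32a1 nor Gad2 was called (adjusted p = 0.0531 and 0.0539). A second Slc32a1 probe differed by -1.17 and was not called (adjusted p = 0.145). Gad2, a GABA-synthesising enzyme, read 1.87, 1.54 and 1.75 against 3.00, 3.35 and 3.21 (adjusted p = 0.0335). Slc17a6, the glutamate transporter of thalamus and brainstem, had levels of 2.27, 2.38 and 3.10 against 2.51, 2.83 and 2.46, which overlapped. Th, the rate-limiting enzyme of dopamine synthesis, read 1.05, 0.09 and -0.39 against 2.97, 2.38 and 2.52 (difference -2.37, SE 0.38, adjusted p = 0.0614). Slc6a3, the dopamine transporter, peaked in fractions 5 and 6, at 1.76 and 2.32, and was at -2.20, -3.79 and -3.14 in fractions 1 to 3. Of the 13 genes of midbrain dopamine neurons 0 were called, and 6 passed the 2-fold count in favour of fractions 6 to 8, or 9 without fraction 1.

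Peptides of the hypothalamus had fitted differences of up to 5.96 in size between the blocks. Of 28 kept, 2 were called higher in fractions 6 to 8 (Cartpt and Tac1) and 1 higher in fractions 1 to 3 (Cck), and 16 against 1 passed the 2-fold count. Avp, the vasopressin precursor, read 0.17, 1.31 and 5.16 in fractions 6 to 8 and -1.06, -4.24 and -5.96 in fractions 1 to 3. In fraction 3 it was not well above background. The blocks did not overlap, yet the spread within each kept the difference of -5.96 from a call (SE 1.65, adjusted p = 0.173). Oxt, the oxytocin precursor, had a like course, with 0.76, 1.23 and 3.43 in fractions 6 to 8 and -1.67, -3.50 and -4.10 in fractions 1 to 3 (adjusted p = 0.076). Hcrt and Pmch, peptides of the lateral hypothalamus, peaked instead in fraction 7, at 2.36 and 2.13. In fraction 1 they stood at -1.56 and -0.14. Pmch was at -6.74 in fraction 2, not well above background, and its fitted difference went from -4.97 to -6.88 without fraction 1. Cartpt read -0.48, -0.40 and 0.06 against 0.96, 0.99 and 0.92, a small but even difference of -1.23 (SE 0.17, adjusted p = 0.0484). It was higher in fractions 4 and 5, at 1.47 and 1.28, than in either block. Cck, which is also a peptide of cortical neurons, was the called exception, at 6.25, 6.75 and 6.40 against 5.26, 5.22 and 5.10 (difference 1.27, SE 0.16, adjusted p = 0.0481). Without fraction 1 neither Cartpt nor Cck was called (adjusted p = 0.101 and 0.0626). Of the 25 hypothalamic regulators 0 were called, and 7 against 1 passed the 2-fold count, or 10 against 1 without fraction 1. Nkx2-1, a homeobox gene of the ventral forebrain, read -3.01, -6.60 and -6.30 against -1.53, -0.34 and -0.63 (difference -4.47, SE 0.95, adjusted p = 0.107). Without fraction 1 it was called (adjusted p = 0.0326), but neither fraction 2 nor fraction 3 was well above background, and it was at least 20.6-fold higher in fractions 6 to 8.

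**Figure D3:**
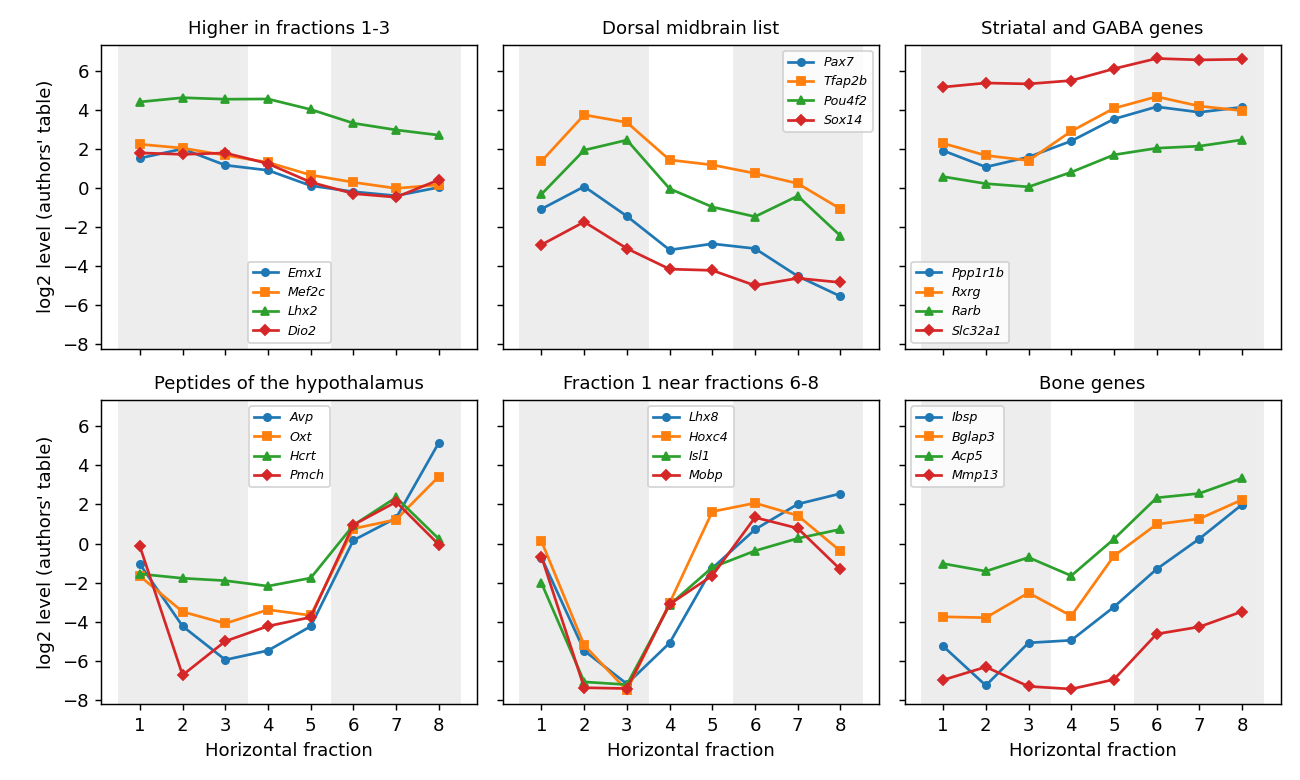
Log2 level in the authors' table (y axis) of 24 genes along the 8 horizontal fractions (x axis), in 6 groups, with the compared blocks shaded. Avp and Oxt were highest in fraction 8 and Hcrt and Pmch in fraction 7, and Lhx8, Hoxc4, Isl1 and Mobp read -0.72, 0.11, -2.03 and -0.68 in fraction 1 but -5.21 or lower in fractions 2 and 3. Lhx8, Hoxc4, Isl1 and Mobp were not well above background in fractions 2 and 3.

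The enzymes that activate and inactivate thyroid hormone lay on opposite sides. Dio2, which converts thyroxine to its active form, was higher in fractions 1 to 3, at 1.81, 1.74 and 1.81 against -0.28, -0.46 and 0.43 (difference 1.89, SE 0.24, adjusted p = 0.0481). Dio3, which inactivates the hormone, was higher in fractions 6 to 8, at -2.38, -1.72 and -1.72 against -3.77, -4.87 and -4.98 (difference -2.60, SE 0.37, adjusted p = 0.0492). Both calls lay close to the threshold, and without fraction 1 Dio3 was called (adjusted p = 0.0441) and Dio2 was not (adjusted p = 0.0969). The window before the start of Dio2 (GRCm38.p6, chr12:90739039-90739288, minus strand) is shown with TGACGTCA, the full cyclic AMP response element, and TATAAA, from 30 to 25 bases before the start, in capitals.
Dio2: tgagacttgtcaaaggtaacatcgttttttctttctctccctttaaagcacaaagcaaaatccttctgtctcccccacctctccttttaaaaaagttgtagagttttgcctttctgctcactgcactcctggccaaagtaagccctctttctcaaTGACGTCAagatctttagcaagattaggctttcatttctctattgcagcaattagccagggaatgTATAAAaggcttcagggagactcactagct
TGACGTCA, which reads the same on both strands, was present in 508 of 32851 windows (1.55%). It was also present in those of 4 of the 81 called genes. These genes have 132 windows between them, so the count of genes is not directly comparable with the share of windows.

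Genes of bone had the largest called differences of all. The 10 leading genes in favour of fractions 6 to 8 were Bglap2, Bglap3, Acp5, Dmp1, Phex, Scn10a, Wt1, Dcstamp, Mmp13 and Dio3, and 7 of them are genes of bone-forming or bone-resorbing cells. Bglap2 and Bglap3, near-identical copies of the osteocalcin gene whose signals may be shared, read 0.66, 0.92 and 1.77 and 0.99, 1.27 and 2.24 in fractions 6 to 8. In fractions 1 to 3 they read -4.90, -5.53 and -3.42 and -3.76, -3.80 and -2.53. The differences were -5.73 and -4.86 (adjusted p = 0.0294 and 0.0268), and Bglap2 was well above background in 1 of the 3 dorsal fractions. Acp5, the tartrate-resistant phosphatase of osteoclasts, was measured in all fractions and read -1.03, -1.42 and -0.71 against 2.34, 2.57 and 3.35 (difference -3.81, SE 0.31, adjusted p = 0.0268). The other mice did not reach these levels. The highest coronal and sagittal values were 0.74 and -1.17 for Acp5, -0.21 and -2.84 for Bglap3, and -0.81 and -3.24 for Bglap2. The cause was not tested. Ibsp, bone sialoprotein, was not well above background in any dorsal fraction and was at least 41.2-fold higher in fractions 6 to 8 (adjusted p = 0.0557), and a second Ibsp probe, also not well above background there, was called (adjusted p = 0.0426). Dmp1 was at least 7.08-fold higher, Phex at least 3.67-fold, Dcstamp at least 2.01-fold and Mmp13 at least 1.96-fold, with adjusted p between 0.0481 and 0.0484. All 5 genes had their highest level in fraction 8. Of the 10 leading genes Wt1 and Dio3 were called without fraction 1, and the adjusted p of the other 8 was then between 0.051 for Acp5 and 0.106 for Mmp13.

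Of the 9 genes of a cartilage and bone list that were kept, 1 was called and 7 passed the 2-fold count in favour of fractions 6 to 8, and 5 were not well above background in any of fractions 1 to 3. The log2 of their summed level was 0.13 to 0.96 in fractions 1 to 3 and 2.09 to 4.01 in fractions 6 to 8. A wider list of bone cell genes, drawn up after the values were seen and so no independent evidence, had 7 called and 14 passing the 2-fold count of 17 kept, with summed levels of 2.10 to 2.74 and 3.95 to 5.19. Of 10 skeletal muscle genes 0 were called and 4 passed the 2-fold count. Myl1, a myosin light chain, was at least 13.5-fold higher in fractions 6 to 8 (adjusted p = 0.0529), and the summed level of the list was 1.13 to 1.76 against 1.95 to 2.75. Sensory neuron genes were called as well. Scn10a, the sodium channel of pain-sensing neurons, was at least 3.97-fold higher (adjusted p = 0.0484), and Prdm12, a regulator of the same neurons, read -2.17, -2.18 and -2.02 against -0.66, -0.54 and -0.31 (adjusted p = 0.0268, and 0.0531 without fraction 1). In a list of sensory ganglion genes, also drawn up after the values were seen, these 2 of 13 kept were called and 6 passed the 2-fold count, with summed levels of 2.12 to 2.97 against 3.17 to 3.52. These tissues lie outside the brain, and what part they had in the differences of other genes was not tested. Wt1, a zinc-finger factor, had the smallest adjusted p of the comparison, 0.016, at -4.06, -3.89 and -3.59 in fractions 6 to 8, and was at least 2.39-fold higher there than in fractions 1 to 3. It was highest in fraction 5, at -3.10.

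The windows before the starts of Ibsp (GRCm38.p6, chr5:104299037-104299286, plus strand) and Mmp13 (GRCm38.p6, chr9:7272264-7272513, plus strand) are shown as those of a bone matrix gene and of a matrix-degrading enzyme. Capitals mark TATAAA, read on the reverse strand from 28 to 23 bases before the start of Ibsp and on the forward strand from 16 to 11 bases before that of Mmp13, and in Mmp13 AACCACA, a sequence bound by RUNX factors, and TGANTCA, the sequence bound by AP-1.
Ibsp: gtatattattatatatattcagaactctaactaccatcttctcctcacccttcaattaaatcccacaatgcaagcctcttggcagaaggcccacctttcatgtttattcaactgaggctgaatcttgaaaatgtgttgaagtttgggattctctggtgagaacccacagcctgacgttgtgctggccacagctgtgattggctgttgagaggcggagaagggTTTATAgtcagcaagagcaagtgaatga
Mmp13: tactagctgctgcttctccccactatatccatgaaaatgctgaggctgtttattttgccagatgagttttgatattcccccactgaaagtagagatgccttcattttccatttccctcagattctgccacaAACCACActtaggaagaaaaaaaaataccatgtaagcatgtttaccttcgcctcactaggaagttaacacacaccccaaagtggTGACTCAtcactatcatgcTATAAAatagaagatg
On either strand TATAAA was present in 12.4% of the 32851 windows, AACCACA in 4.40% and TGANTCA in 6.75%. Among the 81 called genes with a window they were present in 9, 7 and 10. These genes have 132 windows between them, and a gene counted if any of its windows matched. The counts of genes are therefore not directly comparable with the shares of windows.

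Fraction 1 carried many genes that were otherwise found in the ventral block. Lhx8, a LIM-homeobox gene of basal forebrain cholinergic neurons, read -0.72 in fraction 1, was not well above background in fractions 2 to 4, at -5.49, -7.19 and -5.10, and read 0.72, 2.02 and 2.56 in fractions 6 to 8. Isl1, a LIM-homeobox gene of cholinergic and striatal neurons, had the same shape, with -2.03, -7.09 and -7.23 against -0.37, 0.26 and 0.73. With fraction 1 neither was called, at differences of -6.24 and -5.66 (adjusted p = 0.149 and 0.138). Without it both were (adjusted p = 0.0472 and 0.0207). As neither was well above background in fractions 2 and 3, Lhx8 was at least 124.6-fold and Isl1 at least 42.3-fold higher in fractions 6 to 8. Further genes of cholinergic and basal forebrain neurons did likewise. Chat, the enzyme that makes acetylcholine, Slc18a3, its vesicular transporter, and the homeobox gene Gbx1 differed by -2.40, -2.76 and -3.25 with fraction 1 (adjusted p = 0.133, 0.148 and 0.152) and were called without it (adjusted p = 0.0472, 0.0326 and 0.0398). Slc18a3 then differed by -3.59, and Chat and Gbx1, which were not well above background in fractions 2 and 3, were at least 6.18-fold and 5.26-fold higher in fractions 6 to 8. Penk and Th were also called in that fit only, at -3.46 and -2.77 (adjusted p = 0.0326 and 0.0472). The 21 Hox genes kept, which mark the hindbrain and spinal cord, were called in 0 cases and passed the 2-fold count in 2, and without fraction 1 in 17. Hoxc4 read 0.11 in fraction 1, -5.21 and -7.53 in fractions 2 and 3, and 2.07, 1.43 and -0.39 in fractions 6 to 8. Mobp, a myelin gene, read -0.68 in fraction 1, -7.39 and -7.43 in fractions 2 and 3, and 1.33, 0.78 and -1.33 in fractions 6 to 8. Neither Hoxc4 nor Mobp was well above background in fractions 2 and 3. Of the 22 genes of hindbrain neurons 2 passed the 2-fold count in favour of fractions 6 to 8, and 15 without fraction 1.

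**Figure D4:**
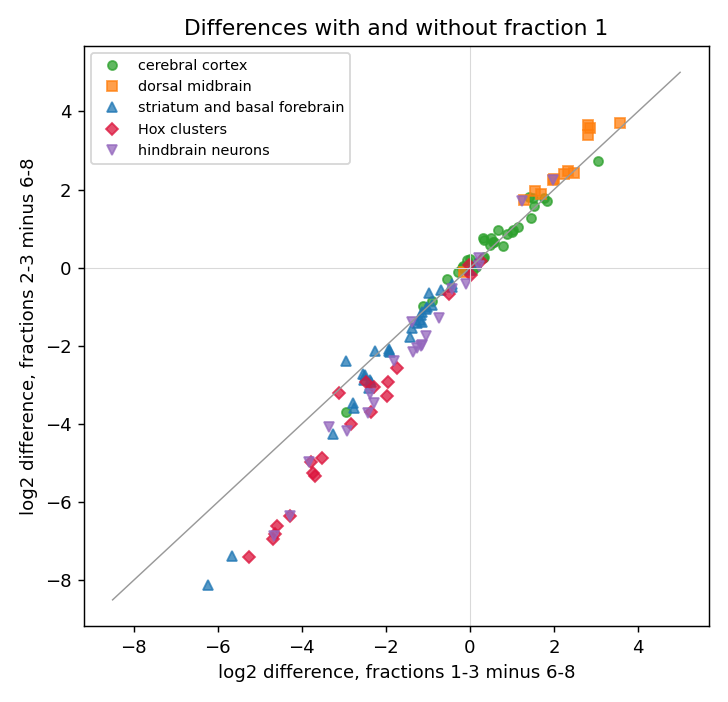
Log2 difference of each kept gene of 5 lists computed with fraction 1 (x axis) and without it (y axis), with the line of equal values in grey. Cortical and dorsal midbrain genes lie near the line, and Hox, hindbrain and the largest basal forebrain differences lie below it. The lowest points are fitted values of genes not well above background in fractions 2 and 3, such as Lhx8, and overstate what the bounds allow.

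In most probes chosen without fraction 1, its level was nearer to fractions 2 and 3 than to the ventral block. Of the 864 probes at least 2-fold higher in fractions 6 to 8 than in fractions 2 and 3, fraction 1 was nearer to fractions 2 and 3 in 540 (62.5%) and nearer to the ventral block in the remainder. Of the 430 probes higher in fractions 2 and 3 it was nearer to those in 314 (73.0%). The choice by fractions 2 and 3 favours extreme values there, and no like count without fraction 2 or 3 is given for comparison. Of 282 ventral probes that were not well above background in fraction 2 or 3, 96 (34.0%) were well above background in fraction 1. The striatal genes Ppp1r1b, Rxrg and Rarb were called in both settings, with -2.73, -2.74 and -2.08 without fraction 1 against -2.54, -2.49 and -1.93 with it. Dlx5 and Dlx6, at -2.15 and -2.14 without fraction 1, were called only with it (adjusted p = 0.051 and 0.061 without).

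The comparison did not use fractions 4 and 5. The mean of both was between the block means for 63 of the 65 probes called higher in fractions 1 to 3 and for 114 of the 124 called higher in fractions 6 to 8. Fraction 4 was nearer to the dorsal block in 46 of 65 and 95 of 124 probes, and fraction 5 in 12 of 65 and 37 of 124. Fraction 4 was nearer to the dorsal block and fraction 5 nearer to the ventral block in 35 of 65 and 60 of 124 probes. Emx1 went from 0.92 to 0.13 there, Ppp1r1b from 2.42 to 3.55 and Dlx5 from -2.23 to -0.85. Hcrt and Oxt stepped later, from -1.77 and -3.68 in fraction 5 to 0.94 and 0.76 in fraction 6. The array of fraction 4 shared a slide with that of fraction 3, and fraction 5 lay on the slide of fractions 6 to 8. Slide and position therefore cannot be told apart between fractions 4 and 5. No share over all probes tested is given beside these counts. Called probes have blocks that lie apart, which favours a middle level between them. The counts therefore only describe the called probes.

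Long non-coding RNA probes made up 18 of the 65 dorsal calls, 8 of the 124 ventral calls and 5962 of the 32919 probes tested. All 5 probes of 1 interval on the reverse strand (mm9, chr4:124127144-124334840) were called higher in fractions 1 to 3, with differences of 1.78 to 1.90. All 3 probes of an interval on chromosome 1 (mm9, chr1:42689799-42749799, reverse strand) were called with 0.95 to 1.09, and all 3 of a short interval (mm9, chr13:56851404-56851796, reverse strand) were called in the other direction with -1.92 to -1.43. Probes of an interval report on the same transcript region and are not independent. A_30_P01030680 (mm9, chr4:13536908-13593316, reverse strand) read -3.88, -3.07 and -4.27 in fractions 1 to 3, was not well above background in fractions 6 to 8 and was at least 2.89-fold higher in fractions 1 to 3. Without fraction 1, 3 of the 18 dorsal and 0 of the 8 ventral lncRNA probes were called by limma. These intervals were chosen after their values were seen. The probes A_30_P01017714 and A_30_P01030305 differed by 0.02 and 0.06.

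Other lists gave few or no calls. Cell cycle genes were nearly level, with 25 kept, a median of 0.15, a range from -0.21 to 0.37 and 0 passing either count. The 16 endothelial and pericyte genes, the 12 microglial genes, the 8 red blood cell genes and the 7 pituitary genes had medians of 0.14, -0.22, 0.19 and -0.34 and 0 in either count. Of 21 oligodendrocyte genes 0 were called and 4 passed the 2-fold count in favour of fractions 6 to 8, with a median of -0.65, and of 20 astrocyte and radial glia genes 3 did so, with a median of -0.38. Without fraction 1 the counts were 8 and 5. S100b, a calcium-binding protein of astrocytes, read 2.68, 0.41 and 1.17 against 3.07, 3.18 and 2.76. Of 17 meningeal genes 1, Col1a1, passed the 2-fold count (difference -1.54, adjusted p = 0.16), and of 14 choroid plexus genes 2 passed it in favour of fractions 6 to 8 and 1 in favour of fractions 1 to 3. Without fraction 1 there were 2 meningeal genes, and 6 choroid plexus genes against 1. Ttr, the thyroxine carrier of the choroid plexus, peaked at 7.80 in fraction 5, outside both blocks. The 5 genes of eye and nose had a median of -0.34.

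Of the remaining regional lists, the hippocampal one had 1 call in 13, Wfs1, an endoplasmic reticulum protein that marks a hippocampal field and the amygdala, which was higher in fractions 6 to 8 (difference -1.33, SE 0.16, adjusted p = 0.0439, and 0.0786 without fraction 1). Of 27 cerebellar genes Itpr1, the calcium release channel of Purkinje cells, was called higher in fractions 1 to 3 (difference 1.37, SE 0.15, adjusted p = 0.0352) and Cbln1, a synaptic protein of granule cells, higher in fractions 6 to 8 (difference -0.86, SE 0.12, adjusted p = 0.0484). Neither was called without fraction 1 (adjusted p = 0.0734 and 0.102). Cbln1 was highest in fraction 5, at 3.63, outside both blocks. Of 20 thalamic genes 0 were called, 4 passed the 2-fold count in favour of fractions 1 to 3 and 1 in favour of fractions 6 to 8, or 6 and 3 without fraction 1. Tcf7l2, a Wnt effector of thalamic neurons, read 0.51, 1.49 and 2.79 against 0.70, -0.80 and -0.31, and Foxp2 had overlapping blocks with a difference of -0.17. Of 20 ventral patterning genes 0 were called and 3 against 1 passed the 2-fold count in favour of the ventral block, or 7 against 2 without fraction 1. Shh, the ligand of the floor plate, was among them, at a difference of -1.45 (adjusted p = 0.162). Of 32 dorsal patterning genes Emx1 and Lhx2 were called, and 6 against 2 passed in favour of the dorsal block. Olig3, a factor of dorsal hindbrain progenitors, went the other way and was at least 2.24-fold higher in fractions 6 to 8 (adjusted p = 0.0504). Abhd4, a lipase gene, had a small difference of -0.29 (adjusted p = 0.355).

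**Figure D5:**
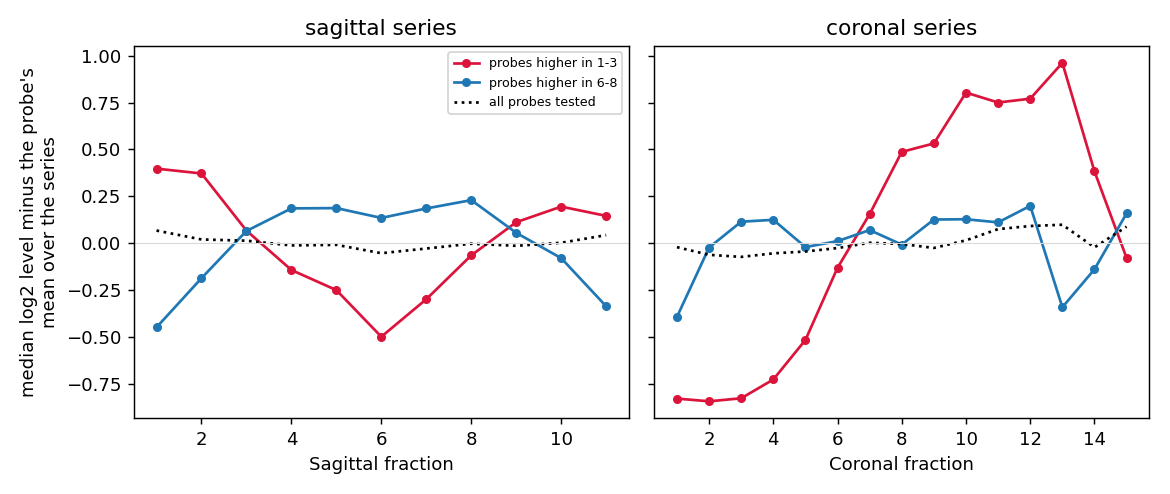
Median log2 level, less each probe's mean over the series (y axis), of the 65 and 124 called probes along the 11 sagittal and 15 coronal fractions (x axes) of a further mouse each, with the median of all probes tested dotted. The dorsal set runs from 0.40 in sagittal fraction 1 to -0.50 in fraction 6, and the ventral set from -0.45 in fraction 1 to 0.23 in fraction 8. Sagittal fractions 1 and 11 each pooled 2 cut fractions.

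The sagittal and coronal series came from other mice and took no part in the calls. In the sagittal series 49 of the 65 dorsal probes peaked in fraction 1 or 2, against 36.6% of all probes tested, and 72 of the 124 ventral probes peaked in fractions 5 to 8, against 30.4%. The median level of the dorsal set was lowest in sagittal fraction 6, at -0.50 relative to the mean of the series, and that of the ventral set was lowest in fractions 1 and 11, at -0.45 and -0.34. Sagittal fractions 1 and 11 each pooled 2 cut fractions, and the others held 1. The arrays of sagittal fractions 2 to 9 shared a slide, and those of fractions 1, 10 and 11 lay on others. Position, pooling and slide cannot be told apart at these ends. In the coronal series 56 of the 65 dorsal probes peaked in fractions 8 to 13 (42.3% of all probes), with a median of 0.96 in fraction 13 and of -0.84 in fraction 2. The ventral set had no single coronal maximum, with 33 probes peaking in fractions 11 and 12, 29 in fraction 15 and 23 in fractions 3 and 4, against 19.3%, 18.8% and 9.46% of all probes. The ranges of fractions match where the called probes peaked most, so an excess over the share of all probes is no separate evidence. Probes of 1 gene share their peaks, and the counts are descriptions of single mice.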

How the data were processed

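Total RNA of each fraction was amplified, labelled with Cy3 and hybridised by the authors to 1 Agilent SurePrint G3 mouse array, and the images were read with Agilent Feature Extraction 10.10.1.1. Per the file headers, the deposited intensity values hold a background-subtracted processed signal, spot and background medians and flags, with no scaling between arrays and mm9 positions. The authors also deposited log2 values, of which 99.9% could be rebuilt to within 0.02 from the processed signal by subtracting 1 number per array, close to its 75th percentile. Precision is limited by how many arrays there are.

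Of 55681 probes 26582 were matched to 1 symbol through RefSeq accessions (GRCm38.p6), used for names only; AI606473 was matched to no probe and is given no value. Arrays were grouped by the fraction number in their titles. Fractions 1 to 3 and 6 to 8 were compared on the authors' log2 values by moderated linear models without a covariate (R 4.3.3, limma 3.58.1, lmFit then eBayes, two-sided, with p adjusted after Benjamini and Hochberg and called under 0.05), with tables made in Python 3.11.15, numpy 2.4.6 and pandas 2.3.3. Tested on simulated data with 200 planted probes, the test recovered 19 of 100 at a log2 difference of 1 and 70 of 100 at 2, with 3 false calls, and gave 0 calls with nothing planted. The simulated noise was independent between arrays, so these numbers do not cover gradients across neighbouring fractions of 1 brain. Probes were kept when well above background in at least 2 of the 6 arrays. The prior degrees of freedom were 2.45.

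Named were the 10 genes with the largest called difference in each direction that were well above background in all 3 fractions of the higher block, the leading genes of 26 lists, up to 3 further members of a list with the largest difference, and Lhx8, Isl1, Foxp2, Sox14, Abhd4 and 2 lncRNA probes. This rule gave 159 genes, of which those near 0 are given by counts. Some of the named genes are not reported here. Called members of lists were named as well, chosen after their values were seen. The members, lists and tests were chosen with earlier results of these data known. Alternatives were other scalings, background corrections, filters and block limits, the slide as a block, a trend over the 8 fractions and leaving out each fraction; since mean spot signals were not among the columns, normexp used medians with an offset of 50. Promoter windows and their motifs came from RefSeq, cut to the 250 bases before each start.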

Additional observations from a re-analysis of the deposited data

How the results depend on the processing

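The direction of all 189 called probes was the same in every alternative that tested them, but the number of calls was not. Probes higher in fractions 1 to 3 and in fractions 6 to 8 numbered 206 and 389 with normexp background correction, 211 and 396 with a variance trend in limma, 152 and 272 when all 6 fractions had to be well above background, and 298 and 374 with a linear trend over the 8 fractions. They numbered 1 and 1 with fractions 1 to 4 against 5 to 8, 0 and 0 with the weaker detection flag (5554 probes at an unadjusted p under 0.05) and 0 and 0 without a filter (5610 probes). The count of 2-fold, non-overlapping probes, chosen after seeing the data, gave 361 and 650, and 430 and 864 without fraction 1. Leaving out single fractions gave 0 to 79 and 0 to 89 calls. The 75th percentile from the scanner files, median centring, quantile normalization, a filter of 3 fractions and the slide as a block stayed within 1.5 times of both counts. The settings leave different numbers of arrays and probes, and the cause of the changes in number was not tested.

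Of 172 genes followed, 24 changed sign under some alternative, none of them among the 35 called, and the largest of their differences was 0.74 in size. Without single fractions Foxp2 ranged from -0.62 to 0.095, Slc17a6 from -0.28 to 0.14 and Tbr1 from -0.29 to 0.055, and Slc17a6 was 0.012 with fractions 1 to 4 against 5 to 8. No paired analysis was possible because the blocks share no replicate number.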
